A study of Mus musculus with 10 samples.

Results

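The genes of 2 families of splicing regulators, the SR proteins and the heterogeneous nuclear ribonucleoproteins (hnRNPs), were followed in platelet RNA from mice of 2 ages. Members were all rows of the deposited tables whose symbol is Srsf with a number or begins with Hnrnp, without pseudogenes, which gave 31 genes of 53819, with 11 SR and 20 hnRNP genes. Platelets from mice labelled P7, read as postnatal day 7, gave 5 libraries (letters A, B, C, E and I), and platelets from adult mice gave 5 (letters A, B, C, G and H). No genotype, strain, sex, treatment or adult age is given in the sources used here, nor whether a library came from 1 animal or from a pool. The p-values therefore refer to the variation among these samples only, and that variation may be technical.

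SR proteins carry RNA-recognition domains and a tail rich in arginine and serine. Bound to exons, they mostly promote the inclusion of those exons, and kinases and phosphatases that act on the tail set their activity and place in the cell. hnRNPs coat nascent transcripts and often oppose SR proteins at splice sites, and many also act in the export, stability and translation of mRNA. Platelets have no nucleus, yet they inherit spliceosome proteins and RNA from megakaryocytes, and splicing of some retained pre-mRNAs has been described in activated human platelets. Both families adjust their own mRNA through exons or introns that send the transcript to decay. Counts per gene do not separate such transcripts from those that make protein.

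Library totals spanned 19431863 to 25029931 counts for P7 and 19541997 to 23291269 for adult platelets, and log2 levels correlated at 0.941 to 0.967 within an age and at 0.898 to 0.930 between ages. Levels are given as CPM, counts per 1000000 counts of tested genes after TMM scaling. The 15 genes of a platelet identity list were each tested, and they summed to 64550 to 88881 CPM at P7 and to 63445 to 94913 CPM in adult libraries, with 5 higher and 4 lower at P7. Of 22 erythroid markers 17 were tested, with 6 above and 0 below the adult level by edgeR's quasi-likelihood test (8 and 0 at an unadjusted p under 0.05, 7 and 0 in DESeq2, 6 and 0 in limma-voom). They summed to 2047 to 3574 CPM at P7 and to 1259 to 2763 CPM in adult libraries. The red cell band 3 gene Slc4a1, Klf1 and Ermap had 0 counts over the adult libraries and were low at P7, with 30, 53 and 26 counts over the P7 libraries. Of 26 leukocyte markers 19 had a mean under 1 CPM, among them the pan-leukocyte gene Ptprc at means of 0.489 and 0.517 CPM in P7 and adult libraries. Ngp, Camp, Ltf, Elane, Mpo, Lcn2, Csf3r, Cd3e and Cd8a had 0 counts over the adult libraries. Each had at most the 28 counts of Mpo over the P7 libraries. The leukocyte sum was 2336 to 3558 CPM in P7 and 2969 to 6128 CPM in adult libraries. It was mostly Lyz2, which was lower at P7, at means of 2765 and 4363 CPM in P7 and adult libraries. Of the 8 tested leukocyte markers 3 were higher and 2 lower at P7. With the erythroid level as a covariate all 5 called members named below passed, and with the leukocyte level all but Srsf7. In bulk RNA, fewer cells of a type and less RNA per cell cannot be told apart.

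Of the 31 members 28 had enough counts to be tested for a difference by age, and 5 of them passed (17.9%, where 27.7% of all 8198 tested genes passed). By family, 3 of 10 SR genes (30%, near that background) and 2 of 18 hnRNP genes (11.1%) passed. Among 10 tested SR genes Srsf7 was higher at P7 and Srsf3 and Srsf5 were lower. Among 18 tested hnRNP genes none was higher, and Hnrnpc and Hnrnpdl were lower. Shares passing in all tested genes were 13.8% for higher and 13.9% for lower at P7. For the 0 higher hnRNP genes of edgeR's quasi-likelihood test, an unadjusted p under 0.05 gave 2 genes, and DESeq2 and limma-voom called 1 each. The median log2 fold change of P7 over adult was 0.12 for SR and 0.09 for hnRNP genes, against 0.05 for all tested genes. In 3 tested members, Srsf5, Hnrnpc and Hnrnpdl, each P7 library lay below each adult one, and in 0 each lay above. Among all tested genes the ages did not overlap in 19.8%, with P7 below in 9.76% and above in 10.1%. Across 8028 tested genes with a known GC content, the log2 fold change correlated with GC content (Spearman's rho 0.276, across genes, which are not independent replicates). The transcripts of the 5 called members lie at 40.0 to 46.4% GC against a median of 49.9%. Uncalled members such as Srsf1, Hnrnpu, Hnrnpk and Srsf6 lie in the same range, at 40.6, 40.9, 42.5 and 42.8%, while uncalled Srsf4 is at 56.85%. With the GC trend removed all of the 5 but Srsf3 still passed.

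**Figure D1:**
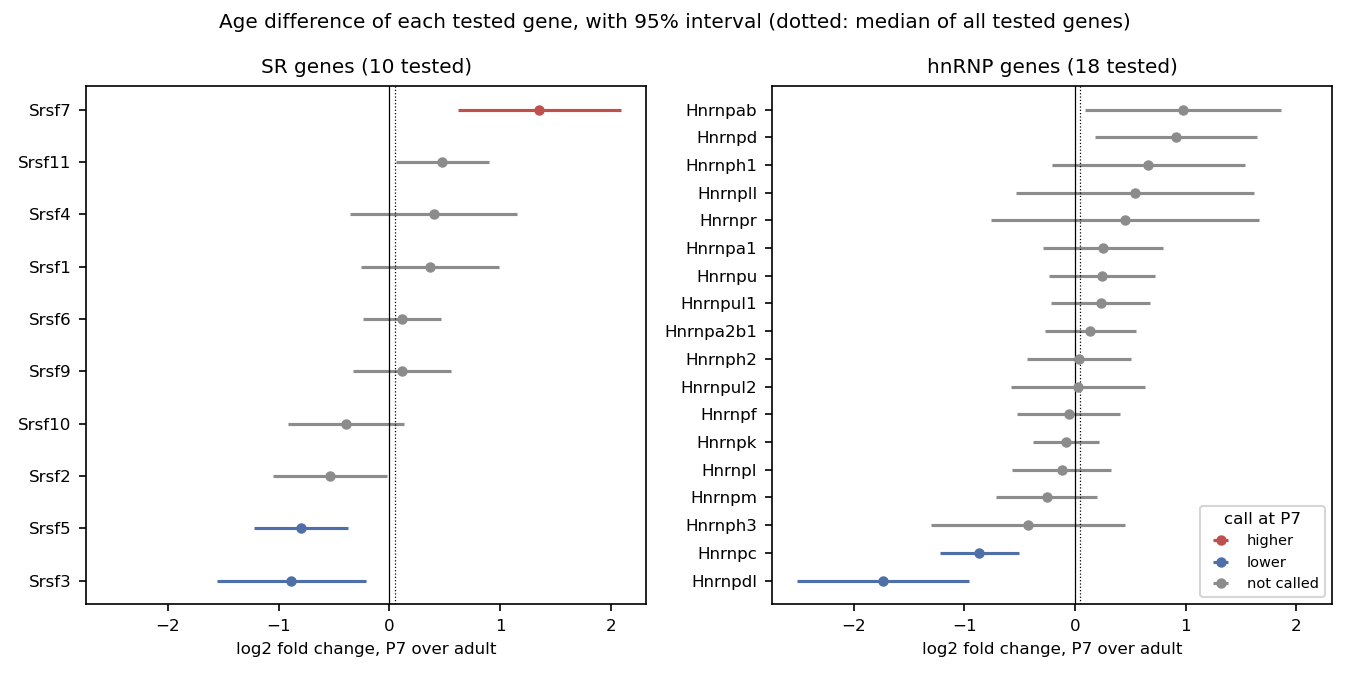
Log2 fold change of P7 over adult platelets for each tested SR gene (left) and hnRNP gene (right), as a point with its 95% interval from edgeR's quasi-likelihood fit (5 libraries per age). Red and blue mark genes called higher and lower at an adjusted p under 0.05, and the dotted line marks the median of all tested genes, 0.05. Srsf7 is the only red point, and 4 genes are blue.

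The starts of the 5 called genes are shown because these genes carry the age differences. Each sequence is the 150 bases before the start of transcription annotated in RefSeq (GRCm38.p6), 5′ to 3′ on the strand of the gene. Capitals mark, on either strand, a CCAAT box (CCAAT), an ETS core (CCGGAA), a GC box (GGGCGG) or a TATA box (TATAAA). The sources used here do not give the build of the deposited counts, and the coordinates are those of RefSeq.
Srsf7 (chr17:80207306-80207455, minus strand): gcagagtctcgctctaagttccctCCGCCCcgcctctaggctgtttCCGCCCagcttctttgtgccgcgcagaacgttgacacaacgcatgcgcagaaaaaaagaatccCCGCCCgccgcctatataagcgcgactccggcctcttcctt
Srsf3 (chr17:29032510-29032659, plus strand): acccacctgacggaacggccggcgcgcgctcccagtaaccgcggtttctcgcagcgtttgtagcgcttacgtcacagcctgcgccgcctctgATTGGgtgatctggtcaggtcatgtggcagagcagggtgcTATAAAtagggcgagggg
Srsf5 (chr12:80945349-80945498, plus strand): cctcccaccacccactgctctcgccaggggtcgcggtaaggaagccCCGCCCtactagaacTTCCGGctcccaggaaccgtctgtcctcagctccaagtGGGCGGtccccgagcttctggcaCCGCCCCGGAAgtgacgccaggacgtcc
Hnrnpc (chr14:52104022-52104171, minus strand): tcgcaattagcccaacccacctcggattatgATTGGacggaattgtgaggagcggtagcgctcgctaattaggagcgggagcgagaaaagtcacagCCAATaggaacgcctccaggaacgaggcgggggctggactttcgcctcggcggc
Hnrnpdl (chr5:100039223-100039372, minus strand): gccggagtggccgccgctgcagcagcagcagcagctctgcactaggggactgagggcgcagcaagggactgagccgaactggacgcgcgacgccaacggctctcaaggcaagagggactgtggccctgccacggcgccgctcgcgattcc

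Srsf7 had 3 GC boxes in this window and Srsf5 had 3 GC boxes and 2 ETS cores, one of which overlaps a GC box. Hnrnpc had 2 CCAAT boxes, Srsf3 had 1 CCAAT box and 1 TATA box, and Hnrnpdl had none of the 4 motifs. Among 32851 RefSeq promoter windows of this length, 24.5% held a CCAAT box, 9.23% an ETS core, 28.6% a GC box and 7.57% a TATA box. None of the motifs was found in all 4 genes that were lower at P7. A match is a run of letters and not a measured binding site. Only the exact letters were searched, so the tatataag in the Srsf7 window was not counted as a TATA box.

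Srsf7 encodes an SR protein with a zinc knuckle beside its RNA-recognition domain, and acts in splicing, export and the choice of polyadenylation site. Its levels in P7 A, B, C, E and I were 3.22, 1.55, 3.50, 4.64 and 3.24 CPM. In adult A, B, C, G and H they were 1.05, 1.98, 1.22, 1.29 and 0.746 CPM. P7 B, the lowest at that age, lay below adult B, the highest in adults, and the other P7 libraries lay above each adult library. The mean was 3.23 ± 1.1 CPM for P7 and 1.26 ± 0.454 CPM for adult platelets (SD over 5 libraries each). Srsf7 rose by 1.36 ± 0.35 on the log2 scale (SE; adjusted p = 0.00932, edgeR's quasi-likelihood test, adjusted by Benjamini and Hochberg over all tested genes). The level rested on few reads, with 384 counts over the P7 libraries and 136 over the adult ones, and the call held with each library left out (1.17 to 1.57). With the leukocyte marker level as a covariate the log2 fold change was 1.29 and did not pass (adjusted p = 0.0976, same edgeR test). That level was mostly Lyz2, itself lower at P7, so the covariate follows Lyz2 and may not follow leukocyte content.

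Srsf3 is the smallest of the SR proteins and the closest relative of Srsf7, with which it shares roles in export and polyadenylation. Its levels were 4.59, 2.07, 3.78, 5.44 and 3.92 CPM in P7 A, B, C, E and I. In adult A, B, C, G and H they were 4.63, 6.92, 4.44, 9.0 and 11.7 CPM. Adult G and H were highest, while adult A and C lay within the P7 range. Srsf3 fell by 0.88 ± 0.32 on the log2 scale (SE), just inside the threshold (adjusted p = 0.0497, edgeR's quasi-likelihood test). It did not pass with library size alone, with upper quartile scaling, in limma-voom or with the GC trend removed (log2 fold changes -0.83 to -0.52). Leaving out any 1 of 7 libraries, P7 A, B, C or I or adult B, G or H, also ended the call, at -0.95 to -0.66. Copies of 25.2% of the 75-base windows of its transcript stand in Gm12355, Gm9761 and AC141429.1.

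Srsf5 encodes an SR protein with a pair of RNA-recognition domains. Its levels in P7 A, B, C, E and I were 11.9, 7.75, 11.5, 10.3 and 11.6 CPM, and in adult A, B, C, G and H they were 14.6, 20.0, 16.2, 24.8 and 16.6 CPM. Each P7 library lay below each adult library. The mean was 10.6 ± 1.72 CPM for P7 and 18.4 ± 4.04 CPM for adult platelets (SD over 5 libraries each), and Srsf5 fell by 0.80 ± 0.20 on the log2 scale (SE; adjusted p = 0.00874, edgeR's quasi-likelihood test). The call held with each library left out, at -0.88 to -0.69. A processed pseudogene, Gm12966, holds identical copies of 22.6% of the 75-base windows of the Srsf5 transcript, and its row had 16 counts over the 10 libraries beside 3216 for Srsf5.

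Srsf2 encodes SC35, a nuclear speckle protein that binds exonic enhancers and recruits the early spliceosome. Per kilobase, taken over the median length of its protein-coding transcripts in GENCODE M21, it was the highest SR gene at both ages, with 60.0 CPM per kb at P7 and 87.1 in adults. Its levels were 98.3, 104.9, 67.5, 69.6 and 143 CPM in P7 A, B, C, E and I. They were 109, 214, 97.8, 138 and 144 CPM in adult A, B, C, G and H. P7 I stood near adult H, and adult C lay below P7 A, B and I, so the ages overlapped. The log2 fold change of Srsf2 was -0.54 ± 0.24 (SE; adjusted p = 0.111, edgeR's quasi-likelihood test). Without P7 I it was -0.73 and passed (adjusted p = 0.0297), and it also passed with the erythroid or leukocyte marker level as a covariate, at -1.04 and -1.10. Antisense exons of Mettl23 and Mfsd11 overlap Srsf2 in GENCODE M21, with 32.9% of its 75-base windows in common. The strand setting of the counting is not stated, so reads of these genes cannot be told apart there.

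The other SR genes did not pass. Srsf6, whose product like that of Srsf5 has 2 RNA-recognition domains, stood at 14.2 CPM per kb at P7 and 13.1 in adults. Srsf9, a repressor or activator by context, stood at 11.3 and 10.4 CPM per kb. Their log2 fold changes were 0.12 (95% interval -0.23 to 0.47) for Srsf6 and 0.12 (-0.33 to 0.56) for Srsf9. The log2 fold change was 0.37 for Srsf1, the archetypal SR protein known as SF2/ASF, 0.40 for Srsf4, which overlaps the antisense gene Gm12992 over 63.8% of its 75-base windows, and -0.39 for Srsf10, whose product represses splicing when dephosphorylated. Srsf1 stood at 4.28 and 3.32 CPM (means for P7 and adult), Srsf4 at 1.42 and 1.08 CPM and Srsf10 at 11.2 and 14.7 CPM, with overlapping libraries in each. Srsf11, encoding p54, stood at 8.17 to 11.2 CPM at P7 and 5.57 to 9.0 CPM in adults and was at 0.48 ± 0.20 on the log2 scale (SE; adjusted p = 0.0831, edgeR's quasi-likelihood test). With the GC trend removed Srsf11 was at 0.61 and passed (adjusted p = 0.0315), as it did with the erythroid covariate at 0.75 (adjusted p = 0.0469). Srsf12 was not tested, since it had 6 counts in P7 C and 0 in each of the other libraries. With 3 counts of a library's total as the limit that a count of 0 allows, and for counting error only, Srsf12 could reach 0.127 to 0.154 per 1000000 counts in those libraries.

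**Figure D2:**
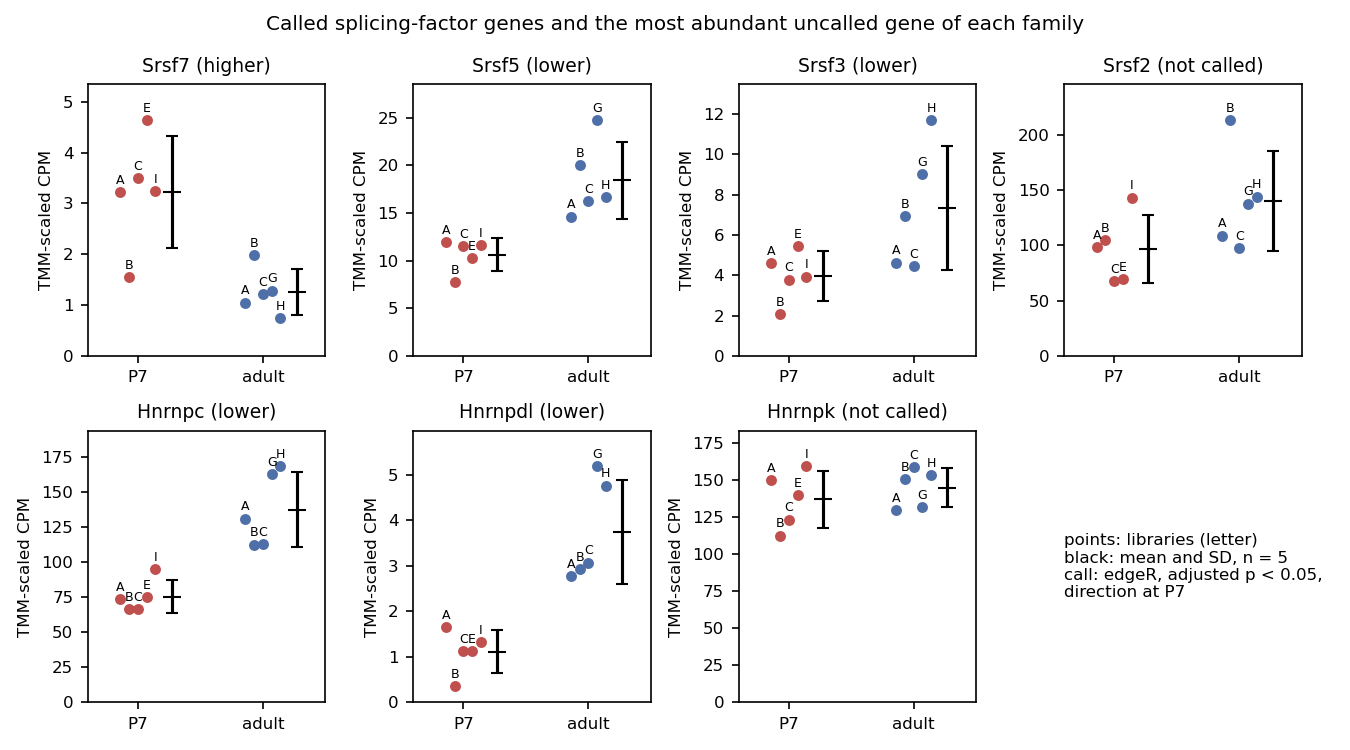
TMM-scaled CPM in each library for the 5 called genes and for Srsf2 and Hnrnpk, the most abundant uncalled gene of each family. Points are libraries with their letter, and black bars are the mean and SD of 5 libraries. Hnrnpc, Hnrnpdl and Srsf5 show no overlap between the ages, and adult G and H are the highest adult libraries for Hnrnpc, Hnrnpdl and Srsf3.

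Among hnRNP genes Hnrnpc had the smallest adjusted p. Its product forms tetramers that measure the length of nascent RNA and cover uridine-rich tracts, where it competes with the splicing factor U2AF65. Its levels in P7 A, B, C, E and I were 73.6, 66.4, 66.5, 75.0 and 95.1 CPM, and in adult A, B, C, G and H they were 131, 112, 113, 163 and 168 CPM. The highest P7 library, I, stayed below the lowest adult library, B. The mean was 75.3 ± 11.8 CPM for P7 and 137 ± 26.6 CPM for adult platelets (SD over 5 libraries each), and Hnrnpc fell by 0.87 ± 0.17 on the log2 scale (SE; adjusted p = 0.00161, edgeR's quasi-likelihood test). It passed in each of 22 alternative fits, at log2 fold changes of -1.12 to -0.64 and adjusted p-values of 1.2e-05 to 0.0248.

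Hnrnpdl encodes a relative of the AU-rich element binding protein AUF1. Its levels were 1.65, 0.362, 1.13, 1.12 and 1.32 CPM in P7 A, B, C, E and I. They were 2.77, 2.92, 3.07, 5.18 and 4.76 CPM in adult A, B, C, G and H. Each P7 library lay below each adult library, and adult G and H stood above the other adults. Hnrnpdl fell by 1.73 ± 0.36 on the log2 scale (SE; adjusted p = 0.00284, edgeR's quasi-likelihood test), the largest change of the 28 tested members. It rested on 133 counts over the P7 libraries and 393 over the adult ones, and the call held with each library left out (-1.93 to -1.51).

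Hnrnpk encodes a protein that binds cytidine-rich RNA and DNA and acts in splicing, translation and transcription. It had the highest summed counts of the hnRNP genes. Per kilobase of the median length of its protein-coding transcripts it stood at 51.5 CPM at P7 and 54.4 in adults, beside 29.9 and 54.6 for Hnrnpc. Its levels in P7 A, B, C, E and I were 150, 113, 123, 140 and 159 CPM, and in adult A, B, C, G and H they were 130, 151, 159, 132 and 154 CPM. The ranges overlapped almost wholly. The log2 fold change of Hnrnpk was -0.08 (95% interval -0.38 to 0.22; adjusted p = 0.708, edgeR's quasi-likelihood test). Of its 75-base windows 33.6% recur in other genes, and the 2 pseudogenes among these, Gm7964 and Gm4130, held 853 counts over the 10 libraries beside 31214 for Hnrnpk.

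The A and B type hnRNPs, among them the best known antagonists of Srsf1, did not pass. Hnrnpa2b1, whose product also sorts RNAs into transport granules and vesicles, stood at 20.7 CPM per kb at P7 and 18.8 in adults, with a log2 fold change of 0.14 (95% interval -0.27 to 0.55). Hnrnpa1 stood at 3.60 ± 0.748 CPM for P7 and 3.02 ± 0.695 CPM for adult platelets (SD over 5 libraries each). Of its 75-base windows 44.4% also stand in other genes, so its level is uncertain. The 13 pseudogene rows among these held 2 counts over the 10 libraries. For Hnrnpa3 90.3% of windows recur in 39 other genes, among them 37 pseudogene rows with 0 counts. Hnrnpa3 was not tested for low counts, at 0.402 to 0.960 CPM at P7 and 0.0857 to 0.387 CPM in adults, and these ranges did not overlap. They rested on 8 to 24 counts per library at P7 and 2 to 9 in adults, so the raw counts did overlap. The share of untested genes without overlap in CPM was not computed. Hnrnpa0, with 66 counts over the 10 libraries, was not tested either, and none of its windows recur elsewhere. The part of shared sequence in the low counts of Hnrnpa1 and Hnrnpa3 was not tested.

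Hnrnpd and Hnrnpab had the smallest adjusted p-values of the uncalled hnRNP genes. Hnrnpab encodes a protein that binds AU-rich and promoter sequences, and stood at 4.79, 3.93, 3.46, 4.6 and 1.96 CPM in P7 A, B, C, E and I. It stood at 0.859, 1.55, 3.56, 2.79 and 0.746 CPM in adult A, B, C, G and H. Adult C and G lay among the P7 values. Its log2 fold change was 0.97 ± 0.41 (SE; adjusted p = 0.0950, edgeR's quasi-likelihood test). It passed without adult C at 1.31 (adjusted p = 0.0321), in limma-voom at 1.14 (adjusted p = 0.0497) and with the erythroid covariate at 1.95 (adjusted p = 0.0110). Antisense exons of Phykpl overlap Hnrnpab in the same annotation. Hnrnpd, which encodes AUF1 itself, stood at 2.50, 2.38, 3.18, 3.88 and 1.19 CPM in P7 A, B, C, E and I. It stood at 1.00, 1.42, 1.46, 1.97 and 1.09 CPM in adult A, B, C, G and H. Only P7 I lay among the adult values. The log2 fold change of Hnrnpd was 0.91 ± 0.34 (SE; adjusted p = 0.0611, edgeR's quasi-likelihood test). Hnrnpd passed without P7 I at 1.09 (adjusted p = 0.0184), without adult G at 1.05 (0.0497), in DESeq2 at 0.90 (0.0450), with the erythroid covariate at 1.32 (0.0414) and with the GC trend removed at 1.22 (0.0193).

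The remaining hnRNP genes did not pass, with log2 fold changes from -0.43 for Hnrnph3 to 0.66 for Hnrnph1. Those of the F and H group, whose products bind runs of guanosine, were -0.06 for Hnrnpf, 0.66 for Hnrnph1, 0.04 for Hnrnph2 and -0.43 for Hnrnph3. Their mean levels for P7 and adult were 5.18 and 5.38 CPM for Hnrnpf, 1.24 and 0.778 for Hnrnph1, 11.0 and 10.7 for Hnrnph2, and 1.49 and 2.01 for Hnrnph3. In Hnrnpf 61.7% of 75-base windows recur in other genes. Hnrnpl, which binds CA repeats, stood at 17.1 and 18.6 CPM, a log2 fold change of -0.12. That of its relative Hnrnpll, known for its part in CD45 splicing in lymphocytes, was 0.54 (95% interval -0.53 to 1.62), at 2.09 and 1.45 CPM. The log2 fold change was 0.24 for Hnrnpu, a scaffold-attachment protein, 0.23 for Hnrnpul1 and 0.03 for Hnrnpul2. Their means were 47.9 and 40.5 CPM for Hnrnpu, 21.3 and 18.1 for Hnrnpul1 and 2.11 and 2.07 for Hnrnpul2. It was -0.25 for Hnrnpm and 0.46 for Hnrnpr, whose interval of -0.76 to 1.66 leaves its direction undetermined. Hnrnpm stood at 19.9 and 23.7 CPM, and shares exons with March2 on the same strand over 28.4% of its windows. Hnrnpr was low, at 1.09 and 0.794 CPM. These genes had no common direction.

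Set against each other, the families had overlapping sums at the 2 ages. SR genes summed to 187, 180, 153, 164 and 234 CPM in P7 A, B, C, E and I. In adult A, B, C, G and H they summed to 190, 304, 187, 244 and 237 CPM. hnRNP genes summed to 411, 343, 362, 412 and 416 CPM and to 400, 438, 434, 471 and 498 CPM in the same order. The ratio of the SR to the hnRNP sum was 0.472 ± 0.0692 for P7 and 0.519 ± 0.102 for adult platelets (SD over 5 libraries each), and its ranges, 0.397 to 0.561 and 0.432 to 0.694, overlapped. Srsf2 alone made up 42.6 to 61.3% of the SR sum at P7 and 52.2 to 70.3% in adults. Without Srsf2 and Hnrnpk the direction turned, to 0.344 ± 0.0118 for P7 and 0.305 ± 0.0214 for adult platelets (SD over 5 libraries each). The lowest P7 library, B, and the highest adult library, C, then both stood at 0.326. No p is given for these sums, since the members were chosen with earlier results of these data known.

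**Figure D3:**
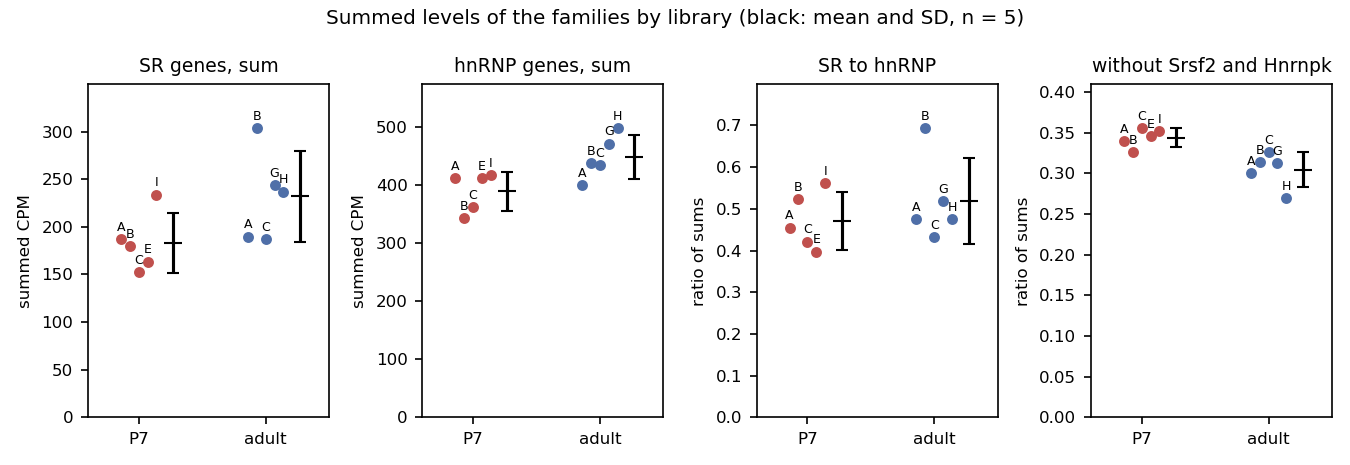
Summed TMM-scaled CPM of the SR genes and of the hnRNP genes, the ratio of these sums, and the ratio without Srsf2 and Hnrnpk, in each library (points with letters) with mean and SD of 5 libraries (black). The ratio is lower at P7 on average with all members, 0.472 against 0.519, and higher without the most abundant gene of each family, 0.344 against 0.305.

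Within families, some ratios between genes separated the ages. The pairs below were chosen after their values were seen. Of the 378 pairs of tested members, within and across the families, the ratio of 59 (15.6%) did not overlap between the ages. The share among pairs of all tested genes was not computed. The ratio of Srsf7 to Srsf3 in CPM was 0.702 to 0.926 at P7 and 0.0637 to 0.286 in adults. Its lowest value, in adult H, rested on 13 counts of Srsf7 and 204 of Srsf3. The transcripts of Srsf7 and Srsf3 have the same GC content, 40.0%, and the part of GC content in this ratio was not tested. The ratio of Hnrnpd to Hnrnpdl was 0.897 to 6.57 at P7 and 0.229 to 0.485 in adults, so Hnrnpd had the higher counts in P7 A, B, C and E only. The 6.57 of P7 B rested on 46 counts of Hnrnpd and 7 of Hnrnpdl, and the next highest ratio was 3.46 in P7 E. The ratio of Hnrnpc to Hnrnpk was 0.490 to 0.597 at P7 and 0.711 to 1.23 in adults. A ratio within a library does not depend on how the library is scaled. The ratios show unequal change and not which gene of a pair changed.

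**Figure D4:**
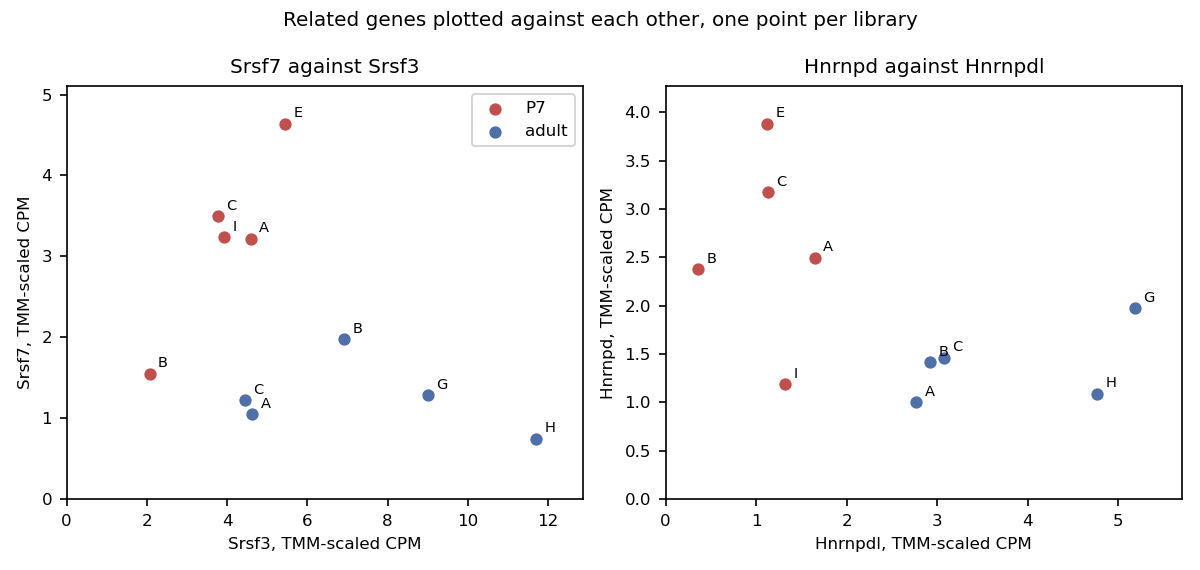
TMM-scaled CPM of Srsf7 against Srsf3 (left) and of Hnrnpd against Hnrnpdl (right), with 1 point per library, labelled by its letter, red for P7 and blue for adult. In both panels the ratio of the vertical to the horizontal value is higher in each P7 library than in each adult library, with ratios of 0.702 to 0.926 against 0.0637 to 0.286 on the left.

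Adult G and H, whose letters no P7 library carries, had the highest adult levels of Srsf3, Hnrnpc and Hnrnpdl. In the 6 libraries of the letters A, B and C alone, fitted without a block, Hnrnpc passed, at -0.82 (adjusted p = 0.00764, edgeR's quasi-likelihood test). In that fit Srsf7, Srsf5, Srsf3 and Hnrnpdl were at 0.93, -0.74, -0.64 and -1.49 and did not pass (adjusted p = 0.161, 0.0597, 0.235 and 0.0547). The direction of each was that of all 10 libraries.

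The partners of these proteins were read from lists beside the 2 families. For comparison, 13.8% of all tested genes were higher and 13.9% lower at P7. Of 22 tested genes of SR-related proteins 2 were higher and 1 was lower at P7, with a median log2 fold change of 0.28, while DESeq2 called 3 and 1 and limma-voom 4 and 1. Tra2b, a splicing activator that acts beside SR proteins on purine-rich enhancers, fell by 1.33 ± 0.25 (SE), from 12.7 ± 4.0 CPM in adult to 5.03 ± 1.0 CPM in P7 libraries (SD over 5 each). Scaf1, whose product binds the tail of RNA polymerase II, rose by 0.94 and Alyref, an mRNA export adaptor, by 1.23. Of 12 tested kinase, phosphatase and importer genes 0 were higher and 1 was lower in edgeR's quasi-likelihood test, with 2 and 3 at an unadjusted p under 0.05 and 0 and 2 called by DESeq2 and by limma-voom. Their median was -0.16. The called gene was Ppp1cb, a catalytic subunit of protein phosphatase 1, at -0.50 ± 0.14 (SE). Ppp1ca and Ppp1cc, the other genes of this type in the list, were named after their values were seen. They were at 0.385 ± 0.176 and -0.237 ± 0.321 (SE) and did not pass (adjusted p = 0.118 and 0.622, edgeR's quasi-likelihood test). The SR protein kinase genes Clk1 and Clk4, named after their values were seen, had log2 fold changes of -1.19 ± 0.48 and -0.72 ± 0.27 (SE) and did not pass (adjusted p = 0.0803 and 0.0618 in the same test). The other kinase genes of the list, also named after their values were seen, had no common direction. Clk3 and Dyrk1a were at 0.056 and 0.064, Prpf4b and Srpk2 at -0.089 and -0.817, and none passed. Srpk1, not tested for low counts, stood at 0.3651 to 0.9648 CPM at P7 and 0.04875 to 0.2295 CPM in adults, without overlap. It had 64 counts over the P7 libraries and 15 over the adult ones. Clk2 and Srpk3, not tested either, overlapped between the ages.

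Of 17 tested genes for proteins counted among the hnRNPs or close to them under other symbols, 4 were higher and 5 lower at P7, with a median log2 fold change of 0.66. Cirbp, a cold-inducible RNA-binding protein gene, rose by 1.07 ± 0.21 and Ybx1, which encodes a major mRNA-packaging protein, by 0.80 ± 0.17 (SE). Ybx1 stood at 1168 ± 269 CPM for P7 and 671 ± 124 CPM for adult platelets (SD over 5 libraries each). Pcbp2, a poly(C)-binding relative of Hnrnpk, fell by 0.96 ± 0.19 (SE). The 3 polypyrimidine tract-binding genes, of which Ptbp1 encodes hnRNP I, moved in different directions, with Ptbp2 at -1.39 ± 0.31, Ptbp3 at -0.82 ± 0.20 and Ptbp1 at 0.86 ± 0.25 (SE). Each of these 3 passed (adjusted p = 0.00394, 0.00783 and 0.0199 in edgeR's quasi-likelihood test), and Ptbp1 and Ptbp3 were named after their values were seen.

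Core spliceosome genes were 7 higher and 2 lower of 50 tested, with a median log2 fold change of 0.07, while DESeq2 called 8 and 3 and limma-voom 4 and 2. Lsm4, Snrnp40 and Snrpg, which encode parts of the small nuclear ribonucleoproteins, rose by 1.60, 2.12 and 2.33, from levels of 1.23, 0.389 and 0.146 CPM in adults. Phf5a, of the SF3B complex that binds the branch point, fell by 1.08. Of 19 tested genes of other splicing regulators 1 was higher and 3 were lower, with a median of -0.15. These were Sfpq, a paraspeckle protein gene, at 1.41, and the muscleblind genes Mbnl1 and Mbnl2 and the CELF gene Celf2 at -0.55, -0.43 and -0.54. Mbnl1 had 1901 ± 191 CPM for P7 and 2779 ± 279 CPM for adult platelets (SD over 5 libraries each). Of 12 tested genes of nonsense-mediated decay 2 were higher and 0 lower in edgeR's quasi-likelihood test (2 and 2 at an unadjusted p under 0.05, 2 and 1 in DESeq2, 2 and 0 in limma-voom). Their median was -0.02. Both called genes, Magoh at 1.09 and Rbm8a at 0.72, encode subunits of the exon junction complex. Eif4a3 and Casc3, of the same complex, were at 0.01 and -0.37 and did not pass. A list of signs of nucleated cells, with nuclear RNAs and the genes of the proliferation proteins Mki67 and Top2a and of lamin B1, summed to 20.0 to 27.5 CPM at P7 and to 13.8 to 19.1 CPM in adult libraries, and its part in the differences was not tested. Of its 3 tested genes 0 passed in edgeR's quasi-likelihood test, 1 was higher at P7 at an unadjusted p under 0.05, and 1 was called higher by DESeq2 and by limma-voom. The gene with the unadjusted p was Mki67, at 1.14 to 3.15 CPM at P7 and 0.191 to 1.32 CPM in adults. Top2a, not tested for low counts and named like Mki67 and Lmnb1 after its values were seen, stood at 0.411 to 3.0 CPM and 0 to 0.214 CPM, and Lmnb1 at 0.183 to 1.21 CPM and 0 to 0.0477 CPM. Xist had 0 counts in each library, and the nuclear RNAs Malat1 and Neat1 overlapped between the ages. Malat1 stood at 2.14 ± 0.595 CPM for P7 and 1.35 ± 0.332 CPM for adult platelets (SD over 5 libraries each), and Neat1 stood at 17.1 and 13.8 CPM.

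**Figure D5:**
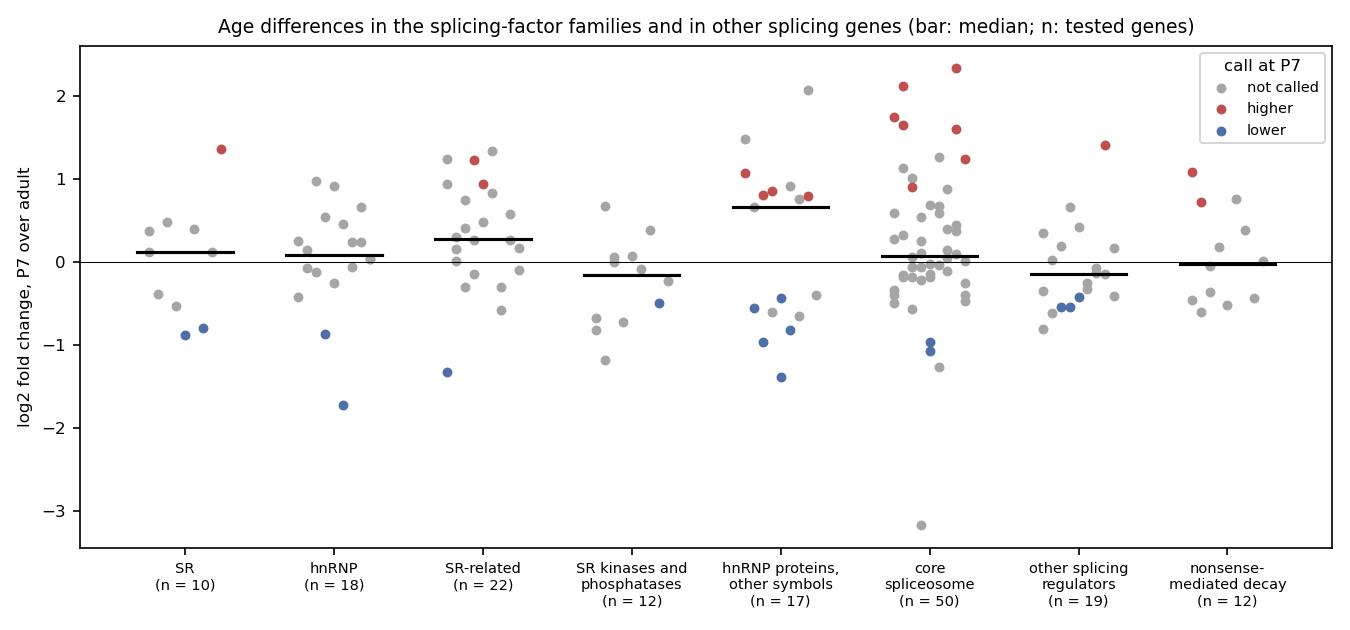
Log2 fold change of P7 over adult for each tested gene of the SR and hnRNP families and of 6 lists of other splicing and decay genes. Points are genes, red where called higher and blue where called lower by edgeR's quasi-likelihood test, and bars are list medians. The medians of the SR and hnRNP genes lie at 0.12 and 0.09, and genes of the hnRNP proteins with other symbols are called in both directions.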

How the data were processed

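RNA-seq of polyadenylated RNA from mouse platelets was analysed from 5 P7 and 5 adult libraries. Per the labels' protocols, cDNA was amplified from 1 ng of RNA with SMARTer v4 chemistry and read as 75 nt single ends from Nextera XT libraries. The authors deposited raw counts of reads per gene symbol. Tools named in the submitters' processing notes, without a role, are Salmon 1.5.2, featureCounts, Subread 2.0.1, STAR 2.7.9a and fastp 0.23.1. The sources used here give no build, annotation, strand setting or handling of multiply mapped reads.

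Genes were filtered with filterByExpr (minimum count 10, total 15), leaving 8198, scaled by TMM and compared by the quasi-likelihood test of edgeR 4.0.16 (R 4.3.3), with age as the only term, an adjusted p under 0.05 as threshold and 95% intervals from the same fit. CPM use the summed counts of tested genes. limma 3.58.1 and DESeq2 1.42.0 served as alternatives, with other scalings, filters, marker covariates (log2 of the summed CPM of a marker list) and left-out libraries. A fit with the GC trend of log2 levels removed was added after seeing the data. The edgeR fit was checked on simulated data. GC content, length and 75-base windows came from GENCODE M21 transcripts and promoters from RefSeq, where 29 of 31 members had one. RefSeq protein sequences are not used here. No 2 libraries held identical values.

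Members and lists were chosen with earlier results of these data known. Each member is accounted for. Values per library are given for called members, for the most abundant uncalled member of each family and, chosen after their values were seen, for Hnrnpab and Hnrnpd. Of each list of splicing partners up to 4 called genes with the smallest p are named. Of the marker lists the summed level and members with 0 counts over the libraries of an age are given, and Ptprc and Lyz2 were named after their values were seen.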

Additional observations from a re-analysis of the deposited data

Results flagged for a closer look

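In 68 groups of 5 libraries (the 31 members at each age, and the SR sum, the hnRNP sum and their ratio), 3 held a library that stood apart, while chance alone flags about 1 in 20 groups. Hnrnpm, whose product binds GU-rich RNA, stood apart in adult B, at 34.9 CPM against 18.6 to 22.0 CPM in the other 4 adult libraries. The gap to the nearest library was 0.793 of the adult range, above the limit of 0.71 for 5 samples. Hnrnpa3, not tested for low counts, stood apart in P7 E, at 0.960 CPM against 0.402 to 0.482 CPM in the other P7 libraries (0.857 of the range). Srsf12, also not tested, stood at 0.241 CPM in P7 C and at 0 in the other P7 libraries, from 6 counts.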

How the results depend on the processing

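Each tested member had a value in 21 or 22 of 22 alternative settings. Of the 28, 10 kept direction and side of the threshold in each setting that gave one, and 19 of 23 uncalled members were called in none. Over all tested genes, counts of higher and lower calls were 568 and 643 for genes averaging 10 CPM or more, 660 and 756 with the replicate block, 711 and 797 with the erythroid covariate and 687 and 688 with the leukocyte covariate. They were 879 to 1160 and 964 to 1234 when 1 library was left out. SR genes called higher were 0 with at least 10 CPM, the block, the 6 libraries of letters A, B and C, or the leukocyte covariate, and 2 with the erythroid covariate or the GC trend removed. SR genes called lower were 1 with library size only, upper quartile scaling, limma-voom, at least 10 CPM or the GC trend removed, 3 with the erythroid or the leukocyte covariate, 0 with the block or the 6 libraries, and 1 to 2 with a library left out. hnRNP genes called higher were 1 in DESeq2, limma-voom and with the GC trend removed, 2 with the erythroid covariate, and 0 to 1 with a library left out. Those called lower were 1 with at least 10 CPM, the block or the 6 libraries. The SR median log2 fold change was -0.33 with at least 10 CPM, which removes 15 tested members, and -0.01 with the GC trend removed. The hnRNP median was 0.04 and 0.22 in these fits, so the order of the 2 family medians turned. It also turned in limma-voom (0.10 for SR against 0.11 for hnRNP genes) and with the erythroid covariate (0.17 against 0.23). Leaving out P7 I (0.11 against 0.18) or adult B (0.05 against 0.08) turned it as well. The hnRNP median was 0.23 with the erythroid covariate, -0.09 with the leukocyte covariate, 0.22 with the GC trend removed and 0.03 to 0.18 with a library left out. The P7-over-adult ratio of SR to hnRNP sums was 0.909, was 1.13 without Srsf2 and Hnrnpk, and was 0.866 to 0.993 with a library left out. Where the settings' own construction does not show it, the cause was not tested.

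The direction reversed only for uncalled members. It did so with the leukocyte covariate for Hnrnpa2b1 (-0.017), Hnrnpll (-0.16), Hnrnpr (-0.47) and Srsf6 (-0.10), and with the GC trend removed for Hnrnpk (0.16), Hnrnpul2 (-0.021) and Srsf9 (-0.18). Hnrnpf was at 0.002 with library size only and with upper quartile scaling. With a library left out the ranges were -0.145 to 0.019 for Hnrnpf, -0.056 to 0.159 for Hnrnph2, -0.112 to 0.148 for Hnrnpul2 and -0.009 to 0.208 for Srsf9. With the replicate block and in the same 6 libraries without it, values were -0.049 and -0.067 for Hnrnph2, -0.031 and -0.012 for Hnrnpul1 and -0.071 and -0.024 for Srsf9. Deviations of log2 levels from the mean of each age correlated at -0.0378, 0.0649 and 0.0067 between P7 and adult libraries of the same letter. Between those of different letters they correlated at -0.0055 to 0.111, so the letters were not taken to pair the samples. Depth limits Srsf7 and Hnrnpdl, which rest on 13 to 116 and 7 to 121 counts per library.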
